A study of Mus musculus with 6 samples.

Results

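The peptide cargo of the islet secretory granule was followed in islets that had received a pulse of Sox17. The genes were the insulin gene Ins2, Iapp, the granins Chga, Chgb, Scg2, Scg3, Scg5 and Vgf, and the peptide genes Ucn3 and Npy, which makes 10 of the 19937 genes that the arrays represented. They were chosen as a list of granule cargo. All 10 were measured, each by 1 probe set, so no gene rests on a choice between probe sets. The 3 Sox17-GOF islet samples had the genotype Ins2-rtTA;tetO-Sox17, where a transactivator under an insulin promoter switches on Sox17 once doxycycline is given. The 3 control samples are labelled Ins2-rtTA, with no other transgene named. Both groups were 16 weeks of age, of the C57BL/6 strain after at least 3 backcross generations, and had doxycycline for 24 hours, so the drug was shared. By the labels the transactivator was shared too, but for a 24-hour doxycycline experiment of the study a legend gives tetO-Sox17 controls, which lack it; which controls went on the arrays was not settled, and under that second genotype transactivator and Sox17 cannot be told apart. The samples of a genotype are described as independent biological triplicates, and the arrays were made to find which islet transcripts a short pulse of Sox17 changes.

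A β cell makes insulin as a precursor, which is folded in the endoplasmic reticulum and packed into dense-core granules at the Golgi, where convertases cut it. IAPP, also called amylin, is cut and released together with insulin. Granins are acidic proteins that aggregate with hormone precursors during granule formation, and several of them are themselves cut into peptides. Urocortin 3 is a peptide of mature mouse β cells that acts on δ cells to raise somatostatin release.

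Ucn3 was the only granule peptide gene that passed the test, and its level was about halved after 24 hours of Sox17. Ins2, Iapp and the granins did not pass it, with Chga the nearest to the threshold. Npy varied so much within each group that its difference could not be measured with any precision. Expression is given as the deposited log2 value, on which a difference of 1 is a 2-fold change, and a gene was called when its limma p, adjusted by Benjamini-Hochberg over 22961 probe sets with a gene symbol, was under 0.05.

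The promoters of 5 of these genes are shown, of which only Ucn3 was called. The others are Iapp and Chga, and Chgb and Scg2, which share an element. Each is the 250 bases before the RefSeq gene start, 5′ to 3′ on the strand of the gene, in build GRCm38.p6. A promoter was found for 8 of the 10 genes. Capitals mark TAAT, the core bound by homeodomain proteins such as PDX1, in Ucn3 and Iapp, and TGACG, part of the cAMP response element, in Chga, Chgb and Scg2, on either strand. The motifs were picked with the sequences in view.
Ucn3, chr13:3945350-3945599, minus strand: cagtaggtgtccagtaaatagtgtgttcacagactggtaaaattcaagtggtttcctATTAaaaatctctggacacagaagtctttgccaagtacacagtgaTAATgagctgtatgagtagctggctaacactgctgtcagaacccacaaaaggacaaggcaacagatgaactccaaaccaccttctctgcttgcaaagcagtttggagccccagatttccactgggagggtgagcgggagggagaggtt
Iapp, chr6:142298175-142298424, plus strand: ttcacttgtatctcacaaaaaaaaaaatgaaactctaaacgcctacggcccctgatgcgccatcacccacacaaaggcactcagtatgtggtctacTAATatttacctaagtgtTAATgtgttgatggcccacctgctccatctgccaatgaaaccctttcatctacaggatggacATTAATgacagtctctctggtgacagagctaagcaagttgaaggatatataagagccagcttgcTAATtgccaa
Chga, chr12:102554691-102554940, plus strand: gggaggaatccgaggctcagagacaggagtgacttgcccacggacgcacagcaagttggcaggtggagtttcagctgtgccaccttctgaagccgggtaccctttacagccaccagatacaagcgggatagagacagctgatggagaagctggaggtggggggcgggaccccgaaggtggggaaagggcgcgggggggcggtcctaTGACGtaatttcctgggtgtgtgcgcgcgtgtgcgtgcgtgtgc
Chgb, chr2:132781392-132781641, plus strand: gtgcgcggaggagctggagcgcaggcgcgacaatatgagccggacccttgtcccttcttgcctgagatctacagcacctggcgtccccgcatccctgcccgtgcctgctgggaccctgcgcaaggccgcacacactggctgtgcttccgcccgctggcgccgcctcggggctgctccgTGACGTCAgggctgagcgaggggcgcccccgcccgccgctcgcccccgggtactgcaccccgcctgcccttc
Scg2, chr1:79440027-79440276, minus strand: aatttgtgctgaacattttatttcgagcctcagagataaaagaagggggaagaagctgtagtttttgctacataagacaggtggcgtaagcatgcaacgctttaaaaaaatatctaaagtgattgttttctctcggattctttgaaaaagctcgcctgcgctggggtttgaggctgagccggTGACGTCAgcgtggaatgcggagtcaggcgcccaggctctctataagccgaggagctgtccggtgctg

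TAAT occurred in 5 of the 8 promoters. It lay 193 and 148 bases before the start of Ucn3 and at 5 positions in the Iapp promoter, of which 2 overlap. It was also present 39 bases before the start of Chga, where it is not in capitals, 249 and 238 bases before that of Scg3 and 229 bases before that of Scg5. Since 54.9% of all 32851 promoters of this length hold TAAT, its presence is common. The whole palindrome TGACGTCA, which contains TGACG on both strands, lay 72 bases before the start of Chgb and 68 bases before that of Scg2, and 1.55% of all promoters hold it. TGACG was found in all 5 granin promoters searched (Chga, Chgb, Scg2, Scg3 and Scg5) and in 17.8% of all promoters. ACAAT, a core recognised by SOX proteins, was present in those of Chgb and Scg2 and in 27.7% of all promoters; neither gene was called. These are matches of letters, and no binding was measured here.

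Sox17 itself was 6.35, 6.22 and 6.36 in Sox17-GOF islets, against 5.50, 5.72 and 5.71 in control islets, without overlap. Of all probe sets, 11.1% had every Sox17-GOF array above every control array. The log2 fold change of Sox17 was 0.67 (adjusted p = 0.00876 by limma). The two-sided exact permutation test gave p = 0.1, the smallest that 3 samples against 3 allow. Array medians lay between 6.31 and 6.41, so Sox17 read near the median in Sox17-GOF islets and below it in control islets. Whether its difference is compressed at this level was not tested. On the second principal component, with 19.8% of the variance, Sox17-GOF replicate 3 (-26.3) stood apart from replicates 1 (17.4) and 2 (13.1), so results that rest on it are also given without it. Of 7 β cell markers, 5 were called lower with Sox17 (Slc2a2, Pdx1, Slc30a8, G6pc2 and Glp1r), where 2.32% of all probe sets were. Nkx6-1 (log2 fold change -0.17) and Mafa (-0.01) were not called. The summed log2 level of the 7 was 13.50 to 13.60 in Sox17-GOF and 14.20 to 14.25 in control islets. It was summed on the linear scale, so Slc30a8 and G6pc2, the brightest of the 7, weigh most in it. Of the other marker lists, for α, δ, PP and ε, acinar, duct, endothelial, stromal, leukocyte and neural cells, the called genes were Kdr (endothelial, log2 fold change -0.68) and Th (neural, log2 fold change -0.94). The summed log2 level of the endothelial list was 11.21 to 11.51 in Sox17-GOF and 11.59 to 11.70 in control islets. That of the neural list was 9.13 to 9.24 in Sox17-GOF and 9.43 to 9.45 in control islets. Both sums were thus lower on every Sox17-GOF array, and they too weigh the brightest genes most. For the remaining lists the sums overlapped between groups. Single genes of the endothelial and neural lists went both ways. Among endothelial markers Esm1 (-0.53) and Flt1 (-0.43) were below 0, and Pecam1 (0.37), Cdh5 (0.27) and Plvap (0.07) above, none called. Among neural markers Dbh (-0.17) and Mbp (-0.17) were below 0, and Prph (0.26), Sox10 (0.13) and S100b (0.09) above, none called.

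Of the 10 granule peptide genes, 1 was called lower and 0 higher in Sox17-GOF islets, against 2.32% of all 22961 probe sets called lower and 2.61% called higher (limma). At an unadjusted p under 0.05, limma and the methods' t-test each counted 2 lower, Ucn3 and Chga, and 0 higher. Over all 22961 probe sets, limma had 10.5% lower and 8.61% higher at that threshold and the methods' t-test 8.96% lower and 7.25% higher. Groups did not overlap for 3 of the 10, all lower with Sox17 (Ucn3, Chga and Iapp), where 13.8% of all probe sets had every Sox17-GOF array below every control array and 11.1% had every one above. The median log2 fold change over the 10 was -0.04, beside -0.01 over all named probe sets, and 6 lay below 0 and 4 above.

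**Figure D1:**
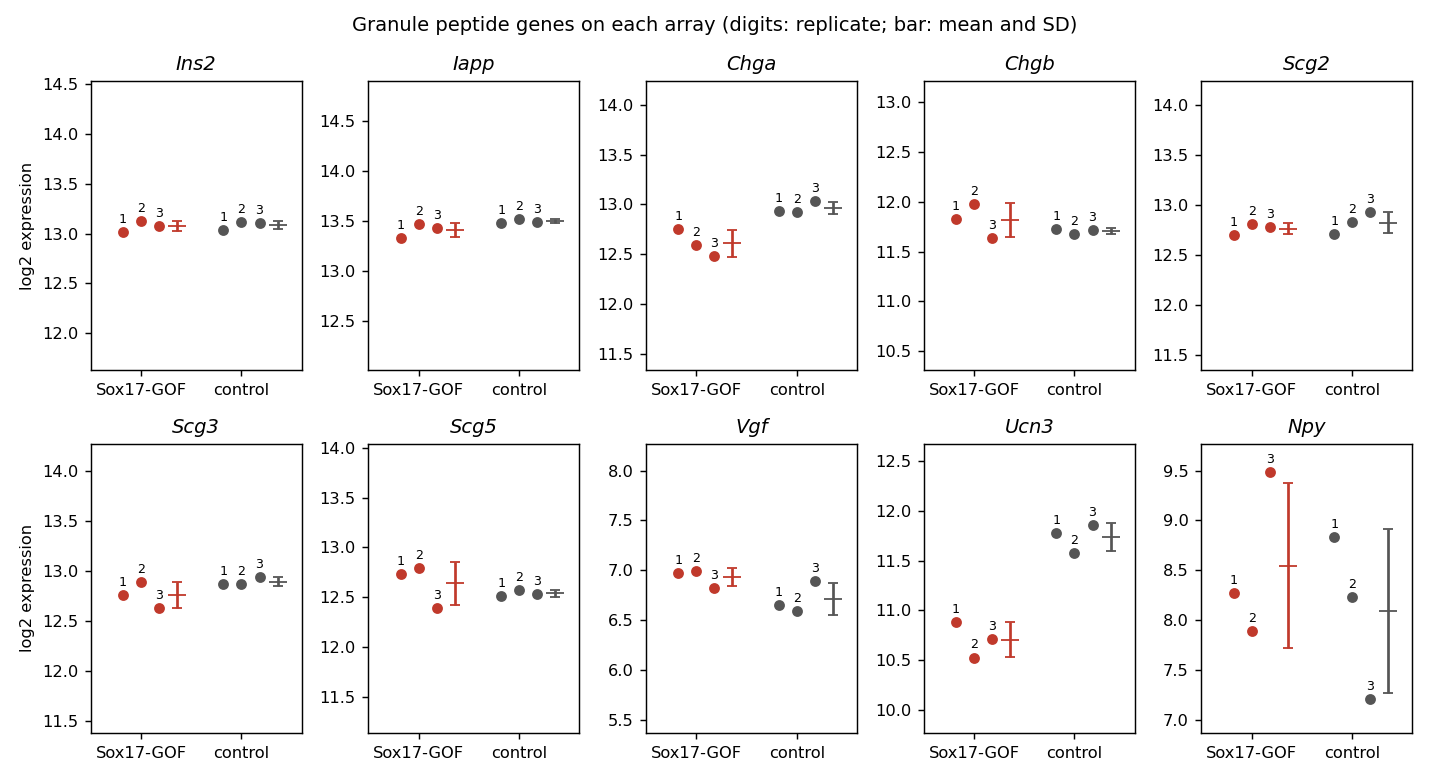
Log2 expression of the 10 granule peptide genes on each array (points with replicate numbers; Sox17-GOF in red, control in grey), with the mean and SD of each group (n = 3 each) and the same span on every vertical axis. The groups are far apart for Ucn3, separate for Chga, separated by 0.01 for Iapp, and overlapping for the other 7 genes.

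Ins2, which encodes preproinsulin, had log2 levels of 13.02, 13.12 and 13.08 in Sox17-GOF islets, against 13.03, 13.12 and 13.10 in control islets. The 2 groups covered nearly the same range. The log2 fold change was -0.01 with a 95% interval of -0.18 to 0.16 (adjusted p = 0.960 from limma), which in linear terms allows a change of -11.8% to 11.6%. Iapp was 13.34, 13.47 and 13.43 in Sox17-GOF islets, against 13.48, 13.52 and 13.49 in control islets. Every Sox17-GOF array was below every control array, but the gap between the groups was 0.01. Its log2 fold change of -0.09 had a 95% interval of -0.26 to 0.08 (adjusted p = 0.599), an allowed range of -16.3% to 6.04%. Whether the Ins2 probe set also reads other insulin transcripts was not tested.

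Both genes were measured near the top of the arrays' scale. The highest value on an array was 14.14 to 14.22, and Ins2 lay 1.02 to 1.18 below its array's highest value and Iapp 0.62 to 0.85. Among the 41 genes with a mean level of 13 and above, 0 were called by limma and 0 had an unadjusted p under 0.05, where the methods' t-test counted 2 higher and 1 lower, and their log2 fold changes ran from -0.13 to 0.15. Their median SD within groups was 0.05. Of the 171 genes between 12 and 13, 3.51% were called, with log2 fold changes from -0.74 to 0.84, and from 10 to 12 the share was 8.47%. Ins2 and Iapp were thus read in a range where the largest difference of any gene was 0.15 on the log2 scale. Whether the arrays could register a larger change there was not tested. Scg2, Scg3, Scg5 and Chga belonged to the range between 12 and 13, where called genes included Slc30a8, the zinc transporter of the insulin granule, and G6pc2, a glucose-6-phosphatase of β cells.

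**Figure D2:**
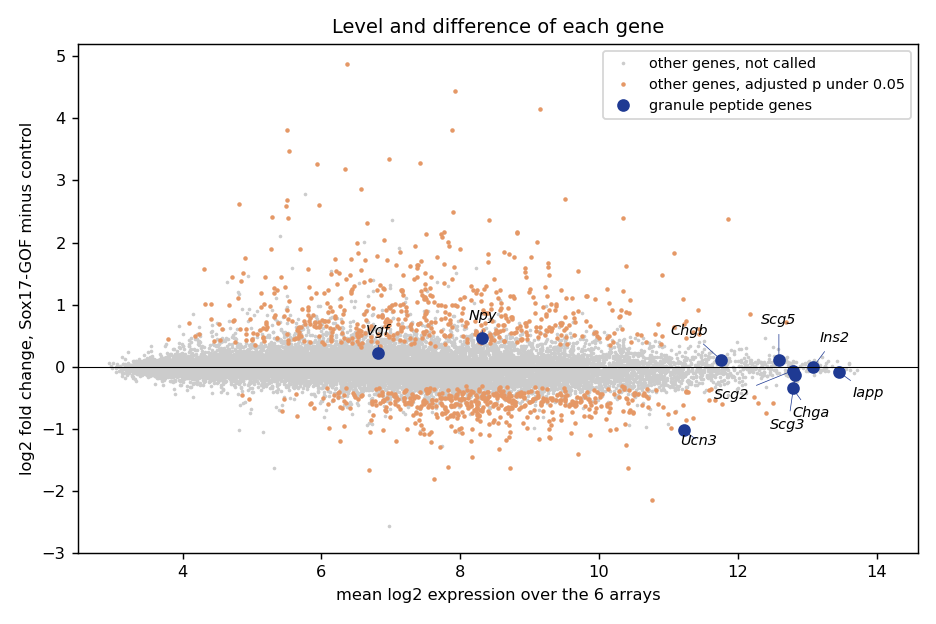
Mean log2 expression over the 6 arrays (horizontal) against log2 fold change, Sox17-GOF minus control (vertical), for 1 probe set per gene, with the 10 granule peptide genes in blue. Differences narrow towards the right, where Ins2 and Iapp lie, and Ucn3 sits below the main body of genes at its level.

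The granins are proteins of the granule matrix. Chga, chromogranin A, is a precursor of peptides such as pancreastatin and is widely used as a marker of endocrine cells. It was 12.76, 12.60 and 12.49 in Sox17-GOF islets, against 12.94, 12.92 and 13.03 in control islets, with a gap of 0.17 between the groups. The log2 fold change was -0.35 with a standard error of 0.09 (95% interval -0.56 to -0.14, a 1.28-fold lower level), and the adjusted p of 0.0786 from limma missed the threshold. In size it ranked 10th of the 171 genes between 12 and 13. A fit that lets the variance follow the intensity called it (adjusted p = 0.0358), while in the other 15 alternatives it was not called.

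Chgb, chromogranin B, was 11.82, 11.98 and 11.64 in Sox17-GOF islets, against 11.73, 11.68 and 11.72 in control islets. The 3 control arrays fell between the highest and lowest Sox17-GOF arrays, and the log2 fold change was 0.10 (95% interval -0.13 to 0.33, adjusted p = 0.642). Scg2, secretogranin II, the precursor of secretoneurin, was 12.70, 12.81 and 12.78 in Sox17-GOF islets, against 12.71, 12.83 and 12.93 in control islets. The groups overlapped, with a log2 fold change of -0.06 (95% interval -0.26 to 0.13, adjusted p = 0.762). Scg3, secretogranin III, which binds chromogranin A and cholesterol-rich granule membrane, was 12.76, 12.89 and 12.63 in Sox17-GOF islets against 12.87, 12.87 and 12.94 in control islets. The groups overlapped here too, with a log2 fold change of -0.13 (95% interval -0.34 to 0.07, adjusted p = 0.477).

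Scg5, the small chaperone 7B2, was 12.73, 12.80 and 12.39 in Sox17-GOF islets, against 12.51, 12.57 and 12.53 in control islets. Replicates 1 and 2 of Sox17-GOF were above all controls and replicate 3 below all of them, and the log2 fold change was 0.10 (95% interval -0.16 to 0.37, adjusted p = 0.696). Vgf, a granin first known as a gene induced by nerve growth factor, was 6.97, 6.99 and 6.83 in Sox17-GOF islets, against 6.65, 6.59 and 6.89 in control islets. The groups overlapped through control replicate 3, and the log2 fold change was 0.22 (95% interval -0.02 to 0.46, adjusted p = 0.300). Unlike the other granins, Vgf read only a little above the array medians of 6.31 to 6.41. Whether its probe set could register a change was not tested.

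Chga, Chgb, Scg3, Scg5 and Vgf were each lowest in Sox17-GOF replicate 3 within their group, 5 of the 10 genes, where 37.3% of all named probe sets were. Without that array the log2 fold change was 0.23 for Scg5, 0.19 for Chgb, 0.27 for Vgf, -0.07 for Scg3 and -0.29 for Chga, and none of these was called (limma, adjusted p from 0.159 for Chga to 0.753 for Scg3). For 7 of the 10 genes the range over the Sox17-GOF arrays was wider than over the control arrays. The SD was wider in Sox17-GOF for 58.1% of all named probe sets.

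**Figure D3:**
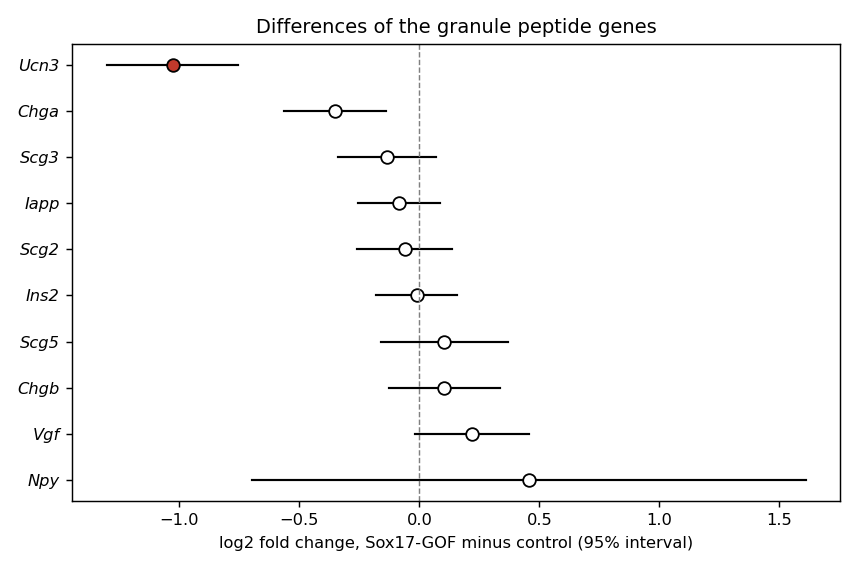
Log2 fold change, Sox17-GOF minus control (points), with its 95% interval from limma (lines) for each granule peptide gene; the filled point is the gene with an adjusted p under 0.05. Ucn3 (-1.03) stands alone to the left, the intervals of Ucn3 and Chga leave out 0, and that of Npy is the widest, from -0.70 to 1.61.

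Ucn3 encodes urocortin 3 and lies on mouse chromosome 13 from 3940688 to 3945349 (GRCm38.p6). It measured 10.89, 10.53 and 10.71 in Sox17-GOF islets, against 11.77, 11.58 and 11.86 in control islets. The lowest control array was 0.69 above the highest Sox17-GOF array. The log2 fold change was -1.03 with a standard error of 0.12 (95% interval -1.30 to -0.76, adjusted p = 0.00436 from limma), a 2.04-fold lower level. In size it ranked 13th of the 1180 genes between 10 and 12. Leaving out each array in turn moved the log2 fold change between -1.12 and -0.94 and the adjusted p between 0.00731 and 0.0253, so no single array carried the call. It was called in 15 of 16 alternatives and lost under the methods' t-test after Benjamini-Hochberg (adjusted p = 0.0906).

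Of the 7 β cell markers given above, 5 were called lower alongside Ucn3 and 2 were not. In whole islets, fewer cells of a type and less RNA per cell cannot be told apart, and the part of the β cell markers in the result for Ucn3 was not tested. The 5 genes whose pattern over the 6 arrays was most like that of Ucn3, by the root mean square difference of log2 values centred on each gene's mean, were Gm572 (0.08), Dennd4c (0.09), Mars1 (0.10), Nr1h4 (0.10) and Esyt1 (0.12). Mars1 is the cytosolic methionyl-tRNA synthetase, Nr1h4 the bile acid receptor FXR, and Esyt1 an extended synaptotagmin that tethers the endoplasmic reticulum to the plasma membrane. Their log2 fold changes ran from -1.09 (Esyt1) to -1.01 (Mars1). They were picked for likeness to Ucn3, so their direction follows from the choice.

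Npy, neuropeptide Y, which inhibits insulin release, behaved in another way. On the log2 scale it measured 8.27, 7.89 and 9.48 in Sox17-GOF islets, against 8.83, 8.23 and 7.21 in control islets. Its SD within groups, 0.83, exceeded that of 99.7% of named probe sets. The log2 fold change was 0.46 with a 95% interval of -0.70 to 1.61 (adjusted p = 0.691 from limma), and -0.01 without Sox17-GOF replicate 3. The interval spans 0.617 to 3.05 times the control level.

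Npy was highest in replicate 3 of Sox17-GOF and replicate 1 of control, and the same 2 arrays were highest for 7 of the 20 other peptide hormone and neuropeptide genes measured, against 10.6% of all genes. These 7 included Vip, Gal, Penk, Tac1 and Ghrl, the genes of vasoactive intestinal peptide, galanin, proenkephalin, substance P and ghrelin, and these 5 were singled out after their values were seen, for an SD within groups above the 99th percentile. Vip, for example, was 6.96, 6.65 and 8.21 in Sox17-GOF islets, against 7.74, 6.61 and 5.80 in control islets. Penk was 7.13, 8.02 and 8.66 in Sox17-GOF islets, against 7.68, 7.38 and 6.04 in control islets. None of the 5 was called by limma (adjusted p from 0.385 for Penk to 0.945 for Gal). The next widest genes of the list, just under that cut, did not share both arrays with Npy. Gast (SD above 98.7% of named probe sets) was highest in replicate 2 of Sox17-GOF and replicate 3 of control. Cartpt (97.1%) was highest in replicate 1 of each group. All 6 acinar markers measured were highest on the 2 arrays where Npy was, with a summed log2 level of 15.07 to 16.02 in Sox17-GOF and 15.60 to 15.88 in control islets. So were 3 of 4 duct markers, both PP and ε cell markers (Ppy and Ghrl, which are also among the 7 peptide genes), 1 of 4 δ cell markers, 1 of 6 each of the endothelial, leukocyte and neural markers, and 0 of 7 β cell, 0 of 3 α cell and 0 of 5 stromal markers. The part of these cells in the spread of Npy was not tested.

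**Figure D4:**
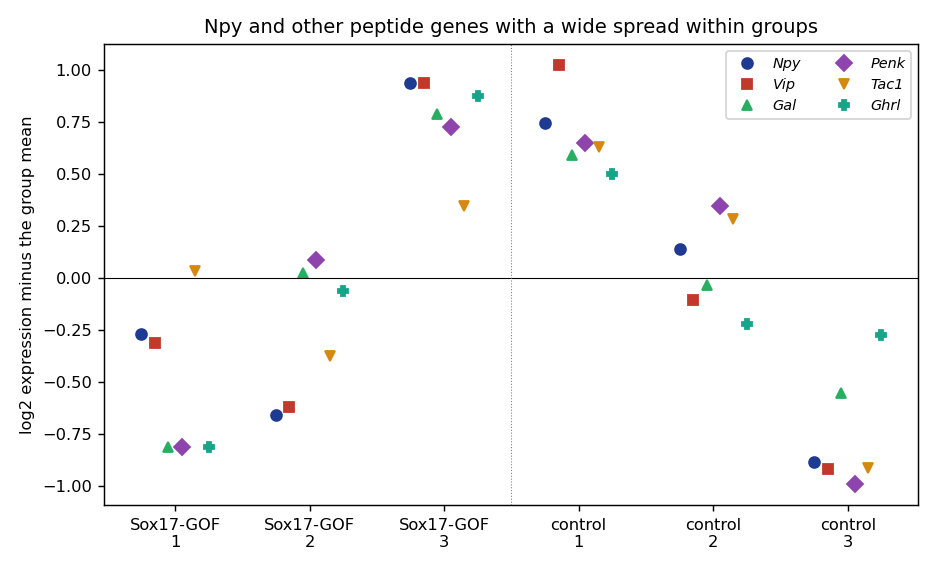
Log2 expression minus the mean of the group, for Npy and the 5 other peptide genes with an SD within groups above the 99th percentile, on the 3 Sox17-GOF and 3 control arrays. All 6 genes are highest in Sox17-GOF replicate 3 and control replicate 1 of their groups.

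The lists around the granule cargo held few called genes. Of 13 processing enzymes and folding helpers measured, 0 were called by limma. At an unadjusted p under 0.05, limma counted 2 higher and 2 lower and the methods' t-test 1 higher and 2 lower, to be read beside the shares of all probe sets, 8.61% and 10.5% by limma and 7.25% and 8.96% by the methods' t-test. Pcsk1, the convertase that begins the cutting of proinsulin, came nearest, at 12.77, 12.70 and 12.41 in Sox17-GOF islets, against 12.16, 12.16 and 12.19 in control islets. Its log2 fold change was 0.46 (adjusted p = 0.0533), so it was higher on every Sox17-GOF array without passing the threshold. Cpe, the carboxypeptidase that trims the cut ends, had a log2 fold change of 0.07 (adjusted p = 0.716). Ero1b, an oxidase that helps form the disulfide bonds of proinsulin, had a log2 fold change of -0.32 (adjusted p = 0.0951).

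Of 15 measured genes in a list of transcription factors for the insulin gene, 1 was called lower and 0 higher, beside 2.32% and 2.61% of all probe sets. Whether each of them acts on the insulin gene was not tested. At an unadjusted p under 0.05 limma counted 3 lower (Pdx1, Neurod1 and Rfx6) and 1 higher (Rest), the methods' t-test 3 lower and 0 higher. The shares of all probe sets there were 10.5% lower and 8.61% higher by limma, and 8.96% and 7.25% by the methods' t-test. Pdx1, which binds the promoters of insulin and Iapp, was 10.50, 10.46 and 10.34 in Sox17-GOF islets, against 10.79, 10.88 and 11.04 in control islets (log2 fold change -0.47, adjusted p = 0.0327), and this call was lost in 10 of 16 alternatives. Neurod1, a further activator of the insulin gene, had a log2 fold change of -0.46 (adjusted p = 0.0519), and Mafa one of -0.01 (adjusted p = 0.958). Mafa read only 6.91 to 6.99, where the array medians were 6.31 to 6.41, and whether its probe set could register a change was not tested. Creb1, which binds the cAMP response element, had a log2 fold change of -0.04 (adjusted p = 0.881).

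Of the 20 other peptide hormone and neuropeptide genes, 0 were called by limma, and 0 had an unadjusted p under 0.05 by limma or by the methods' t-test; for Gcg, glucagon, the log2 fold change was -0.10 (adjusted p = 0.649), and for Sst, somatostatin, -0.03 (adjusted p = 0.940). A list of 15 receptors of the granule peptides, with their relatives and accessory proteins, had 1 gene called lower and 0 higher. Of all probe sets, 2.32% were called lower and 2.61% higher. At an unadjusted p under 0.05 limma counted 5 lower and 0 higher, the methods' t-test 3 lower and 0 higher. The shares of all probe sets there were 10.5% lower and 8.61% higher by limma, and 8.96% and 7.25% by the methods' t-test. The called gene, Insrr, is a relative of the insulin receptor that does not bind insulin and responds to alkaline pH. It was 7.23, 7.66 and 7.42 in Sox17-GOF islets, against 8.78, 8.96 and 8.94 in control islets (log2 fold change -1.46, adjusted p = 0.00132). The other 4 were Igf1r, Calcr, Calcrl and Ramp1, with log2 fold changes from -0.28 to -0.21 (adjusted p from 0.165 for Calcrl to 0.216 for Igf1r). Calcr and Ramp1, which together form a receptor of amylin, had every Sox17-GOF array below every control array, as had 13.8% of all probe sets. The log2 fold change was -0.21 for Calcr (adjusted p = 0.186) and -0.28 for Ramp1 (adjusted p = 0.202), and neither was called. Calcr read 5.18 to 5.50, under the array medians of 6.31 to 6.41. Of the related accessory proteins, Ramp2 had a log2 fold change of 0.20 and Ramp3 one of -0.22, neither called. Crhr2, the receptor of urocortin 3, had a log2 fold change of 0.02 (adjusted p = 0.940) at a level of 6.15 to 6.36, around the array medians. Insr, the insulin receptor, had one of 0.07 (adjusted p = 0.675).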

How the data were processed

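RNA of whole islets from 3 Sox17-GOF and 3 control samples was hybridized to Affymetrix Mouse Gene 1.0 ST arrays. RMA by the authors gave the deposited values on the log2 scale (background subtraction, quantile normalization and median polish), which evens out differences in overall signal between arrays. The methods name GeneSpring 10.1 and the submitters' processing notes Affymetrix Expression Console; which made the table was not settled. The groups were tested in R 4.3.3 by limma 3.58.1, with lmFit and eBayes, and with p-values adjusted by Benjamini-Hochberg over 22961 probe sets with a symbol; 11799 of 34760 had none. Each gene is its brightest single-symbol probe set. Named are the 10 listed genes, Sox17, up to 4 called genes per pathway list and the 5 genes most like Ucn3; other genes were named after their values were seen. The genes and lists were chosen with earlier results of these data known. Levels of different probe sets do not compare amounts between genes. Motifs were searched in RefSeq promoters (GRCm38.p6). Alternatives tried were a variance trend on intensity, weighted arrays, 2 rescalings, all or fewer probe sets, a replicate block, the methods' t-test, averaged probe sets and leaving out each array. The procedure was tested on simulated data for the coverage of its intervals and for false calls; a first mark, on the share of changes recovered, was missed and was replaced by these criteria after that result was seen. The number of arrays limits the precision.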

Additional observations from a re-analysis of the deposited data

How the results depend on the processing

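The number of probe sets called, 1133 (600 higher and 533 lower in Sox17-GOF), was 558 when all probe sets were tested, 71 under the methods' t-test after Benjamini-Hochberg, and 385 to 1020 with 1 array left out. The split was 727 higher and 469 lower after quantile normalization, 523 and 409 after median centring. Of the granule peptide genes, 2 were called lower with an intensity trend (Ucn3 and Chga), 0 under the methods' t-test after Benjamini-Hochberg, and 1, Ucn3, in the other 14 alternatives; 0 were called higher in any of the 16. The difference of Sox17 (0.67) was not called under that t-test (adjusted p = 0.0906). Leaving out 1 array turned the direction of Ins2 (-0.037 to 0.016, turned without control replicate 2 or Sox17-GOF replicate 1) and of Npy (-0.010 to 0.83, turned without Sox17-GOF replicate 3), neither called by limma. The other 8 genes kept their direction in all 16. With the replicate number as a block, 720 probe sets were called and the same single granule gene, Ucn3 (adjusted p = 0.0118); same-numbered arrays did not deviate together (correlations 0.05, -0.02 and -0.04), so the numbers were not taken as pairs. A second probe set could not be tried, since each gene had 1. The causes were not tested.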
